A study of Caenorhabditis elegans with 24 samples.

Results

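The thick filament genes of *C. elegans* muscle were examined in DamID profiles of BAF-1 that had been collected in tissues other than muscle, the hypodermis and the intestine. The genes were the 4 muscle myosin heavy chain genes *unc-54*, *myo-3*, *myo-1* and *myo-2*, and the paramyosin gene *unc-15*, hence 5 of the 46374 genes in the deposited tables. They were chosen by name as muscle genes held to be silent in both profiled tissues, not by their ratios. Earlier results of these data were known when they were chosen. The genes were taken with the 2 kb bins across each of them. The identifier supplied for *myo-1* was in no table, so *myo-1* was matched by its symbol (WBGene00002348). All 5 genes could be tested in all 4 groups. Transcription was not measured in these tables, so the silence of the genes in hypodermis and intestine could not be checked from them. The paper measured RNA polymerase occupancy in both tissues by a separate DamID experiment, which was not used here.

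In DamID a bacterial adenine methyltransferase (Dam) fused to a protein marks GATC sequences near the places where the protein touches DNA, and the reads from Dam fused to GFP serve as reference for how accessible the DNA is. There were 24 libraries in 8 groups of 3, from L4 larvae grown for 48 h at 20 °C, with 4000 animals and 400 ng of DNA per library and 22 PCR cycles. In each tissue the wild-type fusion Dam::BAF-1 and a GFP::Dam control were profiled in animals with wild-type *baf-1*. The mutant fusion Dam::BAF-1(G12T) and a second GFP::Dam control were profiled in animals with the same change, at residue 12, in the endogenous *baf-1* gene. Protein and genotype of the animal therefore cannot be told apart. All fusions were single copies on chromosome II behind the uninduced heat shock promoter *hsp16.41p*, and a recombinase (FLP) driven by *dpy-7p* in hypodermis or *nhx-2p* in intestine removed a blocking cassette. Plasmids with *myo-2* and *myo-3* promoters served as visible injection markers when strains were made.

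BAF-1 (barrier-to-autointegration factor) is a small DNA-binding protein that bridges chromatin to lamin and LEM-domain proteins at the nuclear envelope, where inactive genes are often found. Myosin heavy chains form the thick filaments that pull on actin. In body wall muscle UNC-54 (myosin B) is the abundant heavy chain and MYO-3 (myosin A) occupies the filament centre, whereas MYO-1 (myosin D) and MYO-2 (myosin C) are the heavy chains of the pharynx. UNC-15 paramyosin forms the filament core in both muscles.

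A value below is the log2 ratio of fusion to GFP::Dam over a gene extended by 500 bp at each end, shifted so that the median of all tested genes in a column is 0. A gene was called bound when its mean over 3 replicates lay above 0 with an adjusted p under 0.05 (limma, Benjamini-Hochberg over all tested genes). The study describes its replicates as biological triplicates, and the labels do not describe separate cultures for each, so p-values measure the spread between these libraries. The ratios do not hold read depth, so no counting error is given. The paper lists reads per library, and among these libraries they were fewest in replicates 1 and 2 of Dam::BAF-1 in intestine. The part of low depth in the values of genes and single bins was not tested. A higher ratio from whole-animal DNA may reflect more nuclei with contact or more contact per nucleus, and these cannot be told apart.

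Sequence of *myo-2* and *myo-3* is shown because GATC sites, in capitals, sit inside the genes and not in the 250 bases before their starts. Further upstream both genes have GATC sites. The sequences are from the RefSeq genome (ce11), 5′ to 3′ on the strand of the gene. For each gene the first sequence is the 250 bases before the annotated start, and the second is the stretch of 300 bases inside the gene with the most GATC sites, which is coding over its whole length. The windows are chrX:12467811-12468060 and chrX:12472143-12472442 (plus strand) for *myo-2*, and chrV:12234344-12234593 and chrV:12228178-12228477 (minus strand) for *myo-3*.
myo-2 upstream: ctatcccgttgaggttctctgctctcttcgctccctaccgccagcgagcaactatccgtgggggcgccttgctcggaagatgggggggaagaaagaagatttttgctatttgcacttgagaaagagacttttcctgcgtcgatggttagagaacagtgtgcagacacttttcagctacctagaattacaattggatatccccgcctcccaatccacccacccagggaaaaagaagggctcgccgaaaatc
myo-2 coding: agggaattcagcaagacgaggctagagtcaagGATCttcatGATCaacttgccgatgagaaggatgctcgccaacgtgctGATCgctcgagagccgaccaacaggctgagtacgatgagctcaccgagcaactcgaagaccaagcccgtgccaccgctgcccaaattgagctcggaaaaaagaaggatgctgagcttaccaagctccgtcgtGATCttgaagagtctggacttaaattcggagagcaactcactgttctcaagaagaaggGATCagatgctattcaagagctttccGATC
myo-3 upstream: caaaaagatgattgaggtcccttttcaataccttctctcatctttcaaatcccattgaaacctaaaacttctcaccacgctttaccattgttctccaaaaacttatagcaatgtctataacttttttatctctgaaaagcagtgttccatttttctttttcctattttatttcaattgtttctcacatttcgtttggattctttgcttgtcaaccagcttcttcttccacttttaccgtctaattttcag
myo-3 coding: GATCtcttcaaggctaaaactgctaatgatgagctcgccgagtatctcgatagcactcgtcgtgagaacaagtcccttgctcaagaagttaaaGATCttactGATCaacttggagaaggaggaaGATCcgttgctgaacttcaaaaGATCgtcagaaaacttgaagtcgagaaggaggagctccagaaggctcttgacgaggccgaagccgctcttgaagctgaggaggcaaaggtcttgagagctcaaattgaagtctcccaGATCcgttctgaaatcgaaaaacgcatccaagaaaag
Neither upstream window held GATC (searched as GATC, which reads the same on both strands). Among 19889 protein-coding genes, 38.4% of such windows held it. Each coding stretch held 6 sites. Immediately before the starts of *myo-2* and *myo-3* these assays therefore had no site to methylate.

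The genes differ in position and resemble each other in GATC content, which sets where DamID can read. In ce11 coordinates *unc-54* (WBGene00006789) lies at chrI:14855901-14863482 on the arm of chromosome I, minus strand. *unc-15* (WBGene00006754, chrI:7376604-7383197) and *myo-1* (chrI:7258946-7267057) lie on the minus strand in the centre of the same chromosome, 109.5 kb apart. *myo-3* (WBGene00003515) lies at chrV:12226817-12234343 in the centre of V, minus strand, and *myo-2* (WBGene00003514) at chrX:12468061-12475348, plus strand. With their extensions they held 34 to 51 GATC sites, or 4.48 (*unc-15*) to 5.83 (*unc-54*) per kb, against 2.68 per kb in the genome. Of all 40-base windows in these regions, at most 0.303% (*myo-2*) occurred more than once in the genome.

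Across groups, *unc-54* in hypodermis and *unc-15* in intestine had the highest ratios of the 5 genes. In hypodermis with BAF-1, 1 of 5 genes was called bound (*unc-54*), where 20.5% of all tested genes were. With BAF-1(G12T) in hypodermis it was 2 of 5 (*unc-54* and *myo-2*, background 24.6%). In intestine it was 1 of 5 with each protein (*unc-15* both times, backgrounds 25.9% with BAF-1 and 21.9% with BAF-1(G12T)). Such counts are near the background and are no result about the set. The median of the 5 means was 1.38 in hypodermis BAF-1, 0.93 in hypodermis BAF-1(G12T), -0.42 in intestine BAF-1 and 0.69 in intestine BAF-1(G12T), beside 0 for all genes. Of 15 replicate values per group, 14, 13, 8 and 11 were above 0, in the same order. In hypodermis BAF-1, replicate 3 was the lowest for 4 of the 5 genes. Over all genes, the number called bound in intestine BAF-1 was 9541 and fell to 3141 without replicate 3 and to 0 without replicate 2 (6273 at an unadjusted p under 0.05). In hypodermis BAF-1 it was 6236 and fell to 3845 without replicate 2 and 4095 without replicate 3. In hypodermis BAF-1(G12T) 8302 became 5266 without replicate 2, and in intestine BAF-1(G12T) 7306 became 4131 without replicate 3.

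**Figure D1:**
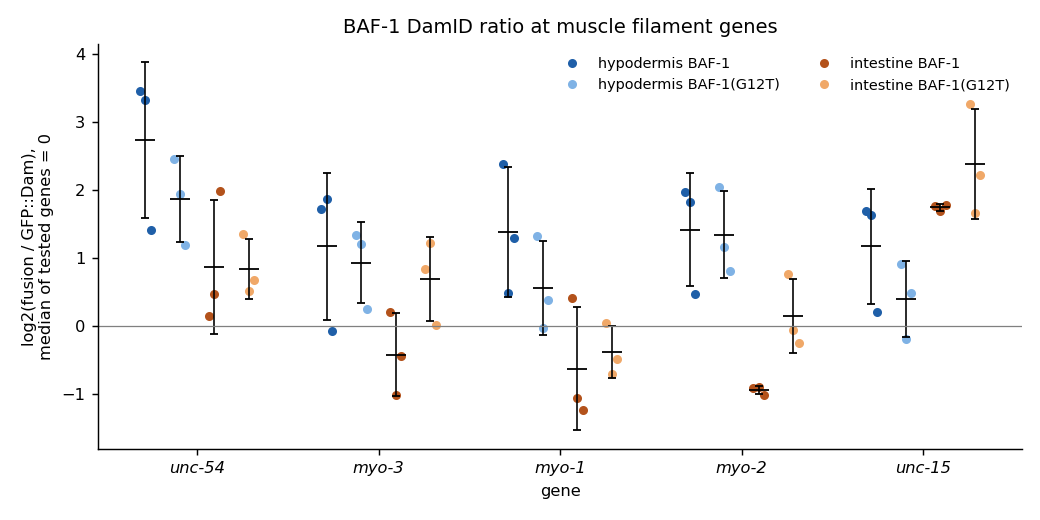
Log2 ratio of fusion to GFP::Dam (vertical axis, 0 is the median of tested genes) for each gene in the 4 groups. Points are the 3 replicates and black bars show mean ± SD. *unc-54* is highest in hypodermis BAF-1 (mean 2.73), whereas *unc-15* is highest in intestine BAF-1(G12T) (2.38), and *myo-2* lies near -0.94 in all 3 replicates of intestine BAF-1.

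*unc-54*, the body wall heavy chain gene, had ratios of 3.45, 3.33 and 1.41 in the 3 hypodermis BAF-1 replicates. Its mean of 2.73 ± 1.14 (SD, n = 3) was bound (adjusted p = 0.00384, limma). With BAF-1(G12T) in hypodermis the replicates were 2.45, 1.94 and 1.19, and the mean of 1.86 ± 0.63 was also bound (adjusted p = 0.00772). All 6 hypodermis values were thus above 1, and replicate 3 was the lowest with both proteins. In intestine BAF-1 the values were 0.15, 0.46 and 1.99 (mean 0.87 ± 0.98, adjusted p = 0.263). In intestine BAF-1(G12T) they were 1.34, 0.51 and 0.67 (mean 0.84 ± 0.44, adjusted p = 0.272). The ratio was above 0 in every intestine column without passing the test, and replicate 3 of intestine BAF-1 overlapped the hypodermis range. The hypodermis BAF-1 call held under all 6 alternative settings. The BAF-1(G12T) call held under 5 of 6. The filter kept genes for which the comparison of the authors gave an adjusted p-value. Without this filter the call was lost (adjusted p = 0.151, limma), and the calls over all genes fell to 423.

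*myo-3*, which encodes the heavy chain of the filament centre, was called bound in no group. In hypodermis BAF-1 the values were 1.72, 1.87 and -0.07, with a mean of 1.17 ± 1.08 (adjusted p = 0.125, limma). With BAF-1(G12T) they were 1.33, 1.20 and 0.24 (mean 0.93 ± 0.60, adjusted p = 0.115). Replicate 3 was near 0 with both proteins while replicates 1 and 2 were above 1. In intestine BAF-1 the values were 0.20, -1.02 and -0.45 (mean -0.42 ± 0.61, adjusted p = 0.571). In intestine BAF-1(G12T) they were 0.84, 1.22 and 0.01 (mean 0.69 ± 0.62, adjusted p = 0.376). The hypodermis and intestine ranges overlapped for this gene. Without the filter the hypodermis BAF-1 mean was 1.52 and just passed (adjusted p = 0.0491).

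The pharyngeal gene *myo-2* had its highest ratios in hypodermis. With BAF-1 they were 1.97, 1.82 and 0.46 (mean 1.42 ± 0.83), which missed the threshold (adjusted p = 0.0607, limma). With BAF-1(G12T) they were 2.05, 1.17 and 0.81 (mean 1.34 ± 0.64), which passed it (adjusted p = 0.0332). The BAF-1 mean was thus no lower than the BAF-1(G12T) mean that was called. In intestine BAF-1 the replicates were -0.92, -0.90 and -1.01, a mean of -0.94 ± 0.06 (adjusted p = 0.194). In intestine BAF-1(G12T) they were 0.76, -0.07 and -0.26 (mean 0.15 ± 0.54, adjusted p = 0.858). All hypodermis BAF-1 values were above 0 and all intestine BAF-1 values were below it. The hypodermis BAF-1(G12T) call was lost without replicate 1 (mean 0.99, adjusted p = 0.0977), replicate 2 (mean 1.43, adjusted p = 0.101) or replicate 3 (mean 1.61, adjusted p = 0.0504) and without the filter (adjusted p = 0.222). In hypodermis BAF-1 the gene passed without the filter (adjusted p = 0.0192) and with the centring as deposited (adjusted p = 0.0345).

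*myo-1*, the other pharyngeal heavy chain gene, was called bound in no group. Its hypodermis BAF-1 values were 2.38, 0.48 and 1.29 (mean 1.38 ± 0.95, adjusted p = 0.0706, limma). With BAF-1(G12T) in hypodermis they were 1.31, -0.03 and 0.38 (mean 0.55 ± 0.69, adjusted p = 0.341). Replicate 1 was the highest with both proteins. In intestine BAF-1 the values were 0.41, -1.06 and -1.24 (mean -0.63 ± 0.91, adjusted p = 0.410). In intestine BAF-1(G12T) they were 0.04, -0.71 and -0.49 (mean -0.39 ± 0.38, adjusted p = 0.615). Of the 6 intestine values the pair from replicate 1 was above 0. In hypodermis BAF-1 the gene passed without the filter (mean 1.73, adjusted p = 0.0221) and with the centring as deposited (mean 1.63, adjusted p = 0.0461). Without replicate 1 its mean was 0.88 there and 0.17 with BAF-1(G12T). As the mean of the 2 kb bins it was 0.29 in hypodermis BAF-1 and 0.25 in intestine BAF-1(G12T), where the sign turned.

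The paramyosin gene *unc-15* had the higher mean in intestine with both proteins. In intestine BAF-1 its values were 1.76, 1.69 and 1.78, with a mean of 1.74 ± 0.05 (adjusted p = 0.0309, limma). In intestine BAF-1(G12T) they were 3.26, 1.66 and 2.22, with a mean of 2.38 ± 0.81 (adjusted p = 0.0149). Both means were called bound, and the BAF-1 values had the smallest SD among the bound results of the 5 genes. In hypodermis BAF-1 the values were 1.68, 1.64 and 0.20 (mean 1.17 ± 0.84, adjusted p = 0.113). In hypodermis BAF-1(G12T) they were 0.91, -0.19 and 0.48 (mean 0.40 ± 0.56, adjusted p = 0.482). The intestine BAF-1 call was lost without replicate 2 (mean 1.77, adjusted p = 0.203), without replicate 3 (mean 1.73, adjusted p = 0.146), without the filter (adjusted p = 0.134) and with the centring as deposited (adjusted p = 0.0729). The intestine BAF-1(G12T) call was lost without replicate 1 (mean 1.94, adjusted p = 0.0613) or replicate 3 (mean 2.46, adjusted p = 0.0536). In hypodermis BAF-1 the gene just passed without the filter (adjusted p = 0.0493). With the centring as deposited its BAF-1 means lay close together, at 1.52 in intestine and 1.42 in hypodermis.

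The order within single columns showed the same contrast between *unc-54* and *unc-15*. *unc-54* had a higher ratio than *myo-2* in 12 of 12 columns, than *myo-1* in 11 and than *myo-3* in 10. It exceeded *unc-15* in all 6 hypodermis columns, whereas *unc-15* exceeded *unc-54* in 5 of 6 intestine columns. In hypodermis BAF-1 *unc-54* was followed by *myo-2*, *myo-1*, *myo-3* and *unc-15*, whose means ran from 1.42 to 1.17. In hypodermis BAF-1(G12T) the order was *unc-54*, *myo-2*, *myo-3*, *myo-1* and *unc-15*. In intestine BAF-1 *unc-15* was followed by *unc-54*, *myo-3*, *myo-1* and *myo-2*, and in intestine BAF-1(G12T) by *unc-54*, *myo-3*, *myo-2* and *myo-1*. Neighbours in these orders differed by more than both of their SDs in 3 places, *unc-54* above *myo-2* in hypodermis BAF-1, *unc-54* above *myo-3* in intestine BAF-1 and *unc-15* above *unc-54* in intestine BAF-1(G12T).

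BAF-1 ratios differ between the arms and centres of the autosomes and X, so each gene was also placed among protein-coding genes of its own kind of region. In the autosome centres 2.56% of protein-coding genes were bound in hypodermis BAF-1 and their median was -1.17. There *myo-1* (by its gene window) was at percentile 96.5, *myo-3* at 94.7 and *unc-15* at 94.7 of 6723 genes. On the arms 40.6% were bound with a median of 1.21, and *unc-54* was at percentile 88.8 of 8939 genes. *myo-2* was at percentile 92.2 of 2468 genes on X. The centre genes without a call thus ranked above the called *unc-54* within their regions in that group.

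With BAF-1(G12T) in hypodermis the percentiles were 93.6 for *myo-3*, 93.1 for *myo-2*, 88.5 for *myo-1*, 86.3 for *unc-15* and 72.8 for *unc-54*. In intestine *unc-15* was at percentile 97.6 of its region with BAF-1 and 98.8 with BAF-1(G12T). *unc-54* was at 55.5 and 51.4, near the middle of the arm genes, and *myo-2* at 46.2 and 60.5 of the X genes. *myo-1* was at 73.1 and 75.6, and *myo-3* at 76.6 and 89.1. These ranks are descriptions and have no test.

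Across the bins of 2 kb, the signal of *unc-54* in hypodermis filled the whole gene. All 4 of its body bins (bins with at least 1000 bp inside the gene) were bound with both proteins in hypodermis and none in intestine. The background was 19.7% of tested bins in hypodermis BAF-1, 24.4% in hypodermis BAF-1(G12T), 26.3% in intestine BAF-1 and 21.2% in intestine BAF-1(G12T). Over the 5 genes 9, 10, 4 and 3 of 21 body bins were bound in these groups, and neighbouring bins are not independent. The highest *unc-54* bin, centred 4.48 kb from the start, had 4.06, 4.09 and 2.12 in hypodermis BAF-1 (mean 3.42 ± 1.13, adjusted p = 0.000581, limma) and 2.73, 2.89 and 1.27 with BAF-1(G12T) (mean 2.30 ± 0.90, adjusted p = 0.00201). None of its tested flank bins, 9 with BAF-1 and 10 with BAF-1(G12T), was bound in hypodermis. In intestine BAF-1 the bin over the end of *unc-54*, with 100 bp inside the gene, was bound. Its values were 0.68, 2.08 and 3.46 (mean 2.07 ± 1.39, adjusted p = 0.0108, limma). There 1 of 9 tested flank bins was bound as well. With BAF-1(G12T) in intestine neither the end bin nor any of 10 flank bins was bound.

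In *myo-3* the hypodermis signal peaked at the bin centred 5.34 kb from the start, which holds the coding stretch printed above. Its values were 3.46, 3.29 and 0.21 with BAF-1 (mean 2.32 ± 1.83, adjusted p = 0.0113, limma) and 3.53, 3.68 and 0.42 with BAF-1(G12T) (mean 2.54 ± 1.84, adjusted p = 0.00355). Replicate 3 lay near 0 in both. In intestine the same bin had means of -0.06 with BAF-1 and 1.65 with BAF-1(G12T), and neither was called. The bin over the start of *myo-3* had a mean of -1.61 in hypodermis BAF-1 and -1.12 in hypodermis BAF-1(G12T).

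In *myo-2* the bin centred 4.94 kb from the start, which holds the printed coding stretch of that gene, was bound in hypodermis with BAF-1 (2.33, 2.56 and 0.87, mean 1.92 ± 0.92, adjusted p = 0.0185, limma) and BAF-1(G12T) (2.32, 1.92 and 1.19, mean 1.81 ± 0.57, adjusted p = 0.0068). The bin before the start, with only 2 GATC sites, reached 3.88, 4.10 and 1.68 with BAF-1(G12T) in hypodermis (mean 3.22 ± 1.34, adjusted p = 0.000429). With BAF-1 it had 2.22, 0.87 and -0.11 (mean 1.00 ± 1.17, adjusted p = 0.215). The values overlap between the proteins. Within replicate numbers BAF-1(G12T) was higher in 3 of 3 (by 1.66, 3.23 and 1.79). This difference was not tested, and the share of all bins with such pairs was not counted. The bin was picked after its values were seen, so no gain with BAF-1(G12T) is read from it. In intestine the same bin had means of -1.41 with BAF-1 and -1.52 with BAF-1(G12T).

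In *myo-1* the bin over the start had the lowest body mean in both hypodermis groups. It was -1.38, -2.21 and -1.73 with BAF-1 (mean -1.77 ± 0.42, below 0 with an adjusted p of 0.0242, limma) and averaged -1.22 ± 1.10 with BAF-1(G12T). It holds 3 GATC sites, whereas the other body bins of *myo-1* hold 10 to 15. A single body bin was bound with each protein in hypodermis, the end bin centred at 8.06 kb with BAF-1 (mean 1.70 ± 0.95, adjusted p = 0.035) and the bin at 4.06 kb with BAF-1(G12T) (mean 1.92 ± 1.01, adjusted p = 0.00678).

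*unc-15* in intestine differed from the other genes in that many of its flank bins were bound as well. With BAF-1 all 4 body bins and 8 of 10 flank bins within 10 kb were bound, and with BAF-1(G12T) 3 of 4 and 4 of 8. In hypodermis 1 of 4 body bins was bound with BAF-1 and 2 of 4 with BAF-1(G12T), with 1 and 0 of 8 flank bins. The bin at 4.20 kb was bound in all 4 groups, with means of 2.82 ± 1.43 and 2.09 ± 0.72 in hypodermis and 2.26 ± 0.80 and 2.32 ± 1.60 in intestine (BAF-1 first).

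**Figure D2:**
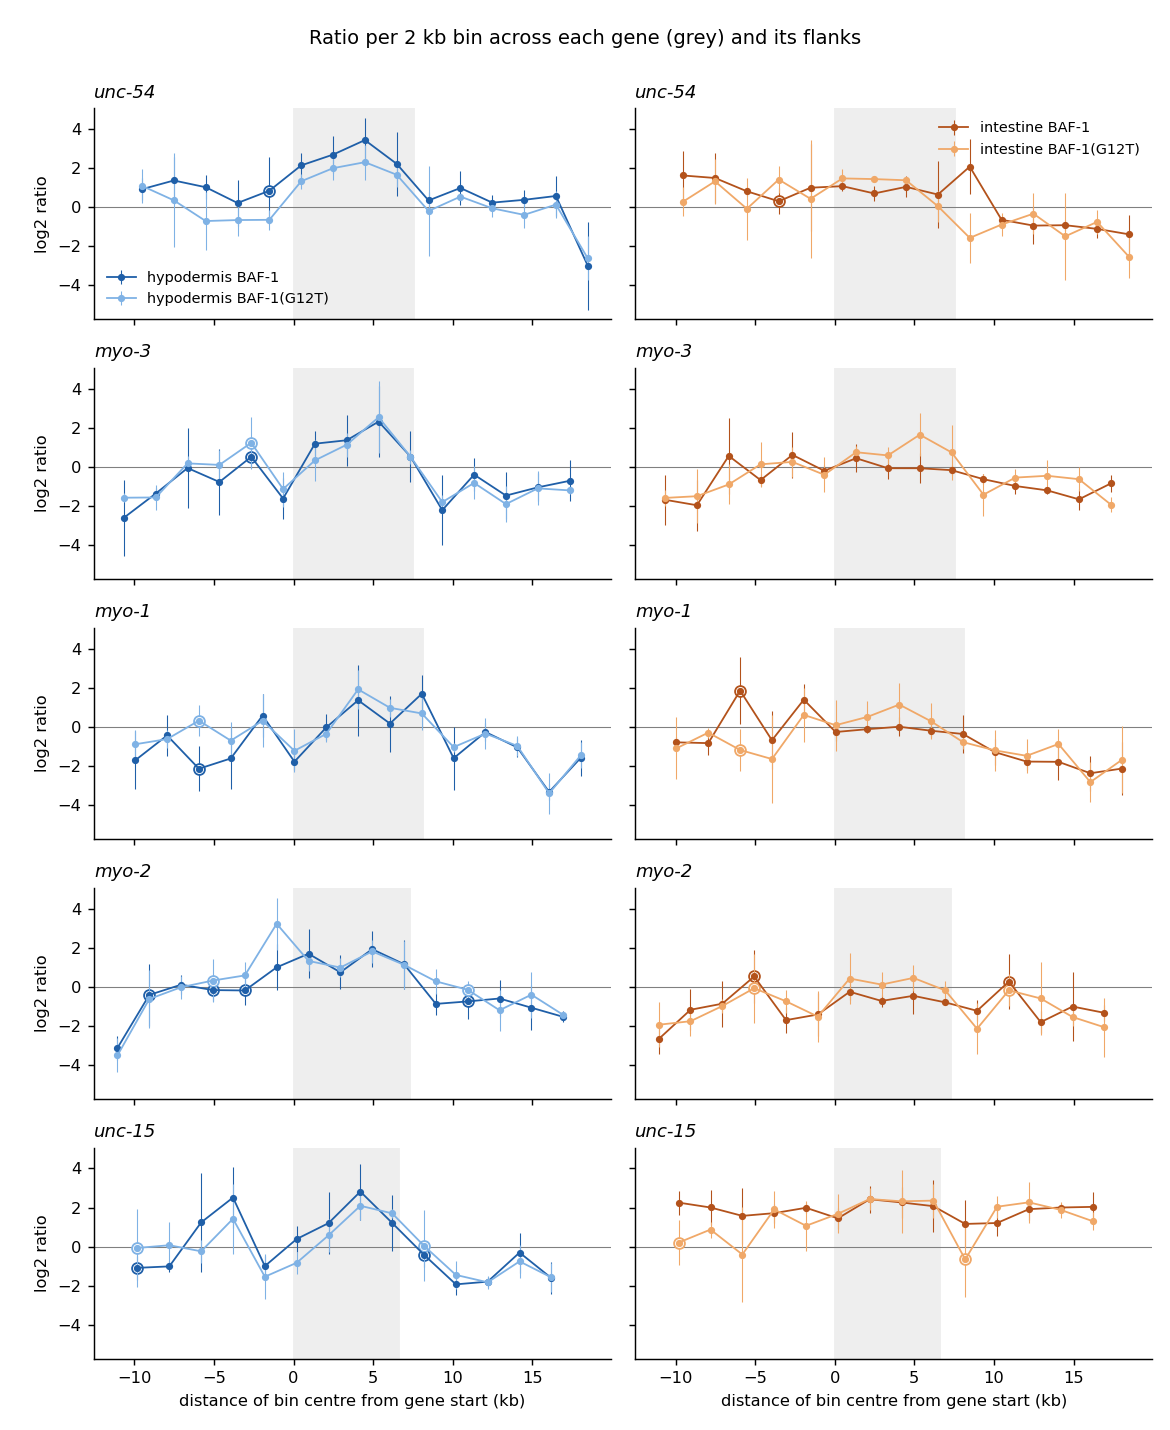
Mean log2 ratio per 2 kb bin (vertical axis, error bars SD over 3 replicates) against the distance of the bin centre from the gene start in kb, with hypodermis left and intestine right. Grey marks the gene and ringed points mark bins that were not tested. In hypodermis the line rises inside *unc-54* to 3.42 at 4.48 kb, whereas in intestine the line of *unc-15* is high across gene and flanks with BAF-1.

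To compare gene with surroundings, the mean of the body bins was set against the mean of the tested bins within 10 kb on either side. This measure was chosen after the profiles had been seen and is given with no test. In hypodermis BAF-1 the body exceeded the flanks by 2.56 ± 0.98 for *myo-2*, 2.53 ± 1.91 for *myo-3*, 2.32 ± 1.20 for *unc-54*, 1.89 ± 1.35 for *unc-15* and 1.50 ± 0.57 for *myo-1* (SD, n = 3). For *myo-3* the body had a mean of 1.36 and the flanks -1.17, and the replicates differed by 3.89, 3.34 and 0.35. In hypodermis BAF-1(G12T) the differences ran from 1.41 (*myo-1*) to 2.21 (*myo-3*).

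In intestine BAF-1 the body exceeded the flanks by 0.95 for *myo-1*, 0.91 for *myo-2*, 0.88 for *myo-3* and 0.87 for *unc-54*, and by 0.27 ± 0.33 for *unc-15*, whose flanks had a mean of 1.79. In intestine BAF-1(G12T) the differences ran from 0.83 (*unc-15*) to 1.79 (*myo-3*). The sign was the same in 12 of 12 columns for each of the heavy chain genes and in 11 of 12 for *unc-15*, with -0.10 in replicate 3 of intestine BAF-1 as the exception. Of 5394 protein-coding genes long enough for the measure in all groups, 416 (7.71%) had 12 of 12. All 3 replicates were above 0 in 29.3% of such genes in hypodermis BAF-1, 32.1% in hypodermis BAF-1(G12T), 27.4% in intestine BAF-1 and 26.9% in intestine BAF-1(G12T). Body bins had a higher median number of GATC sites than flank bins at all 5 genes, with overlapping ranges. The median number of sites per body bin was 12 (*myo-1*), 9 (*myo-2*), 11.5 (*myo-3*), 12 (*unc-54*) and 9 (*unc-15*), against 6.5, 5, 5.5, 4.5 and 6 per flank bin in that order. Its part in the difference was not tested.

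**Figure D3:**
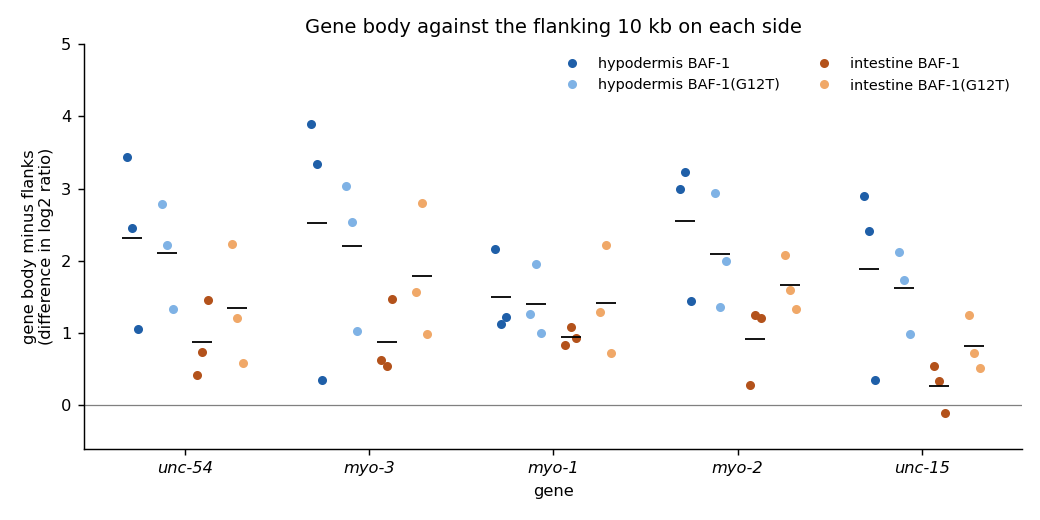
Mean log2 ratio of the body bins minus that of tested bins within 10 kb (vertical axis) for each gene and group. Points are the 3 replicates and black bars their mean. Every point is above 0 except replicate 3 of intestine BAF-1 for *unc-15* (-0.10), and the hypodermis BAF-1 means run from 1.50 to 2.56.

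Between tissues, the 4 heavy chain genes had lower ratios and *unc-15* a higher ratio in intestine than in hypodermis with either protein, but none of the 5 differences passed the test. For BAF-1 the difference (intestine minus hypodermis) was -1.996 ± 0.767 (SE) for *myo-2*, with an interval of -3.61 to -0.38 (95%) and an adjusted p of 0.109 (limma). For *myo-1* it was -1.65 (interval -3.32 to 0.02, adjusted p = 0.192), for *unc-54* -1.50 (adjusted p = 0.282) and for *myo-3* -1.23 (adjusted p = 0.337). For *unc-15* it was 0.93 (interval -0.69 to 2.56, adjusted p = 0.460), and over its alternatives it ran from 0.098 to 1.19. At an unadjusted p under 0.05, 1 of 5 (*myo-2*) passed. Over all 30152 genes tested, 5.56% (1677) were higher and 2.62% (790) lower in intestine. This balance turned with the scaling, to 634 higher and 2796 lower with the centring as deposited and 540 and 1511 without the filter. Without replicate 3 of intestine BAF-1 the count fell from 2467 to 0 (3726 higher and 2026 lower at an unadjusted p under 0.05), and without replicate 2 of hypodermis BAF-1 or of intestine BAF-1 to 438 or 482. These fits were centred on genes tested in both tissues, which moved the difference of the group means given above by 0.36. The move was towards 0 for *myo-2* and away from 0 for *unc-15*. With the centring as deposited the *myo-2* difference was -2.83 and passed (adjusted p = 0.0316), and over its alternatives the adjusted p ran from 0.0316 to 0.276.

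For BAF-1(G12T) the largest of the 5 tissue differences was that of *unc-15*, 2.02 ± 0.74 (SE, interval 0.42 to 3.61, adjusted p = 0.111, limma), the 1 of 5 with an unadjusted p under 0.05. The differences were -1.16 for *myo-2* (adjusted p = 0.342), -0.99 for *unc-54* (adjusted p = 0.421), -0.91 for *myo-1* (adjusted p = 0.467) and -0.20 for *myo-3* (adjusted p = 0.893). The sign of the last turned without replicate 1 of hypodermis BAF-1(G12T) (0.01) and without replicate 3 of intestine BAF-1(G12T) (0.13). Over all 32033 genes tested, 5.03% were higher and 2.29% lower in intestine, 2344 genes in all. Without replicate 1 of hypodermis BAF-1(G12T) 0 passed (3618 higher and 2386 lower at an unadjusted p under 0.05), without its replicate 2 or 3 the count was 267 or 1032, and without replicate 1 or 3 of intestine BAF-1(G12T) it was 1401 or 1237. The tissue comparisons of both proteins use separate libraries.

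Some genes had replicate values that did not overlap between tissues. With BAF-1 all 3 hypodermis values lay above all 3 intestine values for *myo-2* and *myo-1*, a pattern held by 16.2% of tested genes, and the reverse held for *unc-15* (12.7% of genes). With BAF-1(G12T) the first was true of *myo-2* (13.1%) and the reverse of *unc-15* (17.2%). Some of these gaps were narrow. With BAF-1 the nearest values were 1.37 apart for *myo-2* but 0.067 for *myo-1* and 0.0040 for *unc-15*, and with BAF-1(G12T) 0.051 for *myo-2* and 0.75 for *unc-15*. With the centring as deposited, *unc-15* with BAF-1 and *myo-2* with BAF-1(G12T) overlapped, the other 3 did not, and the hypodermis values of *myo-3* with BAF-1 lay above those in intestine. The shares of all genes moved as well, to 23.4% and 6.7% with BAF-1 (hypodermis above and intestine above).

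Between the proteins, the intervals left room for differences in either direction. These comparisons use the same columns as those between tissues. In hypodermis BAF-1(G12T) minus BAF-1 was -0.77 for *unc-54* (interval -2.39 to 0.86), -0.73 for *myo-1* (-2.28 to 0.83), -0.67 for *unc-15* (-2.16 to 0.82), -0.15 for *myo-3* (-1.74 to 1.44) and 0.03 for *myo-2* (-1.48 to 1.53). In intestine it was 0.90 for *myo-3* (-0.75 to 2.54), 0.87 for *myo-2* (-0.72 to 2.47), 0.43 for *unc-15* (-1.23 to 2.08), 0.03 for *myo-1* (-1.62 to 1.68) and -0.24 for *unc-54* (-2.02 to 1.54). The adjusted p was 1.00 to 2 decimals for each of them (limma) and none had an unadjusted p under 0.05. Across all genes 0 of 30279 (0%) passed in hypodermis and 0 of 32982 (0%) in intestine, where 466 and 180 were higher and 119 and 814 lower at an unadjusted p under 0.05. With the centring as deposited these became 172 and 772 higher and 403 and 308 lower, so no direction is read from them. The intervals and counts so far are from fits that do not pair replicate numbers. Within replicate numbers, BAF-1(G12T) had the lower value in 3 of 3 pairs for *unc-54* and *myo-1* in hypodermis and the higher value in 3 of 3 for *myo-3* and *myo-2* in intestine. Which genes show such pairs depends on the centring. The share of all genes with such pairs was not counted, so nothing is drawn from them. With the replicate number as a block none passed after adjustment. At an unadjusted p under 0.05 the block gave 1082 genes higher and 442 lower in hypodermis, and 486 higher and 1572 lower in intestine (limma). In intestine the 3 BAF-1(G12T) values of *myo-2* lay above the 3 BAF-1 values, as in 5.97% of genes. No member showed the reverse in intestine (2.07% of genes), and in hypodermis none had BAF-1(G12T) values all above (2.49%) or all below (4.09%) the BAF-1 values. The tissue difference changed between proteins by 0.46 (*unc-54*) to 1.03 (*unc-15*), and 0 of 5 members and 0% of 29716 genes passed that test (172 higher and 919 lower, and no member, at an unadjusted p under 0.05, but 1185 higher and 221 lower with the centring as deposited).

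**Figure D4:**
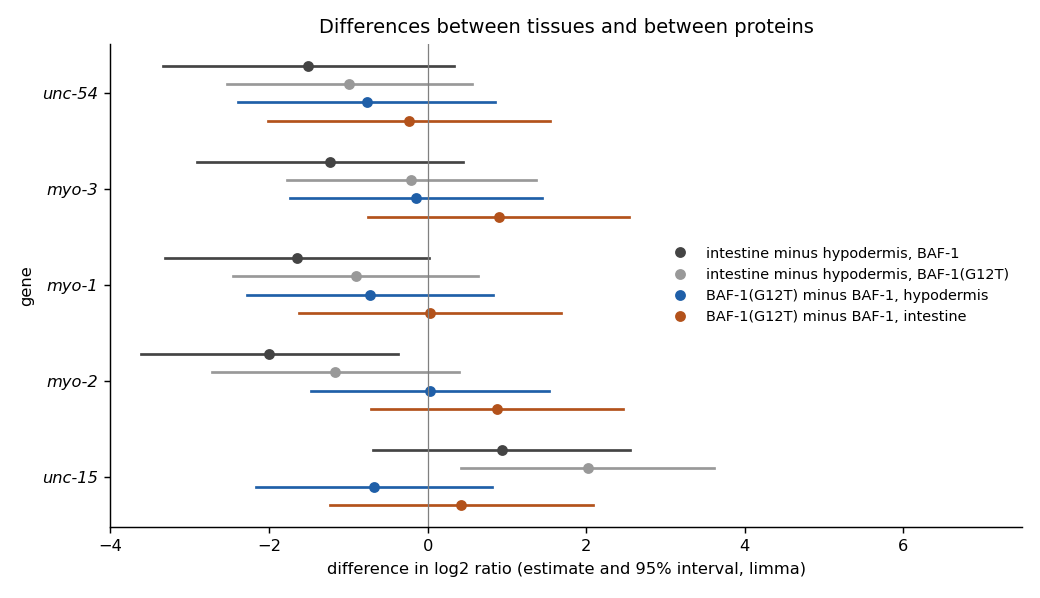
Difference in log2 ratio (horizontal axis) with its 95% interval from limma for each gene, between tissues and between proteins. The fits did not pair replicate numbers. The intervals that exclude 0 are those of *myo-2* between tissues with BAF-1 (-3.61 to -0.38) and of *unc-15* between tissues with BAF-1(G12T) (0.42 to 3.61), and neither passed after adjustment over all genes.

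The other muscle genes did not share 1 direction. Of 50 genes in 5 lists of muscle function, 7 were bound and 7 were below 0 by the same test in hypodermis BAF-1, 8 and 10 in hypodermis BAF-1(G12T), 8 and 10 in intestine BAF-1, and 8 and 6 in intestine BAF-1(G12T). Over all genes the share below 0 was 24%, 26.3%, 22.4% and 19.2% in these groups, beside the bound shares given above. The list medians were 0.21, 0.05, -0.52 and 0.59. The 10 other thick filament and myosin-associated genes had medians of 1.36, 0.99, 0.90 and 1.33. Among them *unc-89* (obscurin, of the M-line) was bound in all 4 groups with means of 2.02, 1.61, 1.75 and 2.64, and *unc-45* (the myosin chaperone) was bound in intestine with BAF-1 (2.15 ± 1.20) and BAF-1(G12T) (2.02 ± 1.28). *unc-96*, of the M-line, was bound in hypodermis (1.64 and 1.33), and *ttn-1*, a titin relative, in intestine BAF-1(G12T) (1.99). The light chain gene *mlc-3* was below 0 in hypodermis BAF-1(G12T) (-1.64). *unc-98*, which encodes an M-line zinc finger protein, was below 0 in all 4 groups, with means from -3.10 to -2.34.

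The 17 thin filament genes had medians of 0.08, -0.22, -1.07 and -0.61. The troponin I gene *tni-3* was bound in all groups (2.24, 2.41, 2.23 and 2.83), whereas *unc-60* (ADF/cofilin) lay below 0 in all groups (-3.54, -3.45, -3.08 and -2.40). The actin genes *act-2* and *act-3* were below 0 in both hypodermis groups and *act-4* in that with BAF-1(G12T), while *act-1* was below 0 in all groups, with reads that these near-identical genes may share. Below 0 in intestine BAF-1 were also *pat-10* (troponin C, -1.89), *tnt-4* (troponin T, -2.04), *tni-1* (troponin I, -2.15) and *lev-11* (tropomyosin, -2.64 and, in intestine BAF-1(G12T), -1.98). The troponin C gene *tnc-2* was bound in hypodermis BAF-1(G12T) (1.98). Of the 5 muscle transcription factor genes, *hlh-1*, the *C. elegans* MyoD gene, was bound in all 4 groups (2.81, 2.75, 3.23 and 3.68). Its replicate values were never below 1.94. *unc-120* (serum response factor family) was bound with BAF-1 in both tissues (2.14 and 1.85), and *hnd-1* (HAND family) in hypodermis BAF-1(G12T) (1.41). The lowest of these genes were *ceh-22* in hypodermis (0.49 and 0.04) and *pha-4* in intestine (-1.18 and -1.12), both with pharyngeal roles, and neither passed the test.

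Of the 11 attachment genes, *unc-95* was bound in all groups, with means of 2.89, 2.77, 2.41 and 2.69. The perlecan gene *unc-52* was bound with both proteins in intestine (2.60 and 3.34). Below 0 by the test were *unc-97* (PINCH) in both hypodermis groups (-2.19 and -2.65), *pat-2* (alpha integrin) in hypodermis BAF-1(G12T) (-1.81), *pat-3* (beta integrin) and *dim-1* in intestine BAF-1 (-2.69 and -2.25), and *atn-1* (alpha-actinin) in intestine BAF-1(G12T) (-1.83). Of the 7 excitation and calcium genes, the acetylcholine receptor gene *lev-1* was bound in all groups (2.82, 2.43, 2.34 and 3.59). Another receptor gene, *unc-29*, was below 0 in hypodermis (-2.62 and -1.38), and the calcium pump gene *sca-1* in intestine (-3.16 and -2.30).

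The 11 non-muscle and unconventional myosin genes had medians of -0.24, -0.19, -1.43 and -0.73, and of them *hum-7* was bound in all 4 groups (3.41, 2.73, 2.78 and 3.37). *spe-15* was bound in hypodermis (1.62 and 1.32). *hum-4* was below 0 in all 4 groups (-2.35, -2.33, -2.49 and -1.88) and *hum-2* in all but intestine BAF-1(G12T) (-1.62, -1.62 and -1.90). *hum-5* (-2.75) and the light chain gene *mlc-4* (-2.88) were below 0 in intestine BAF-1.

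Most genes on the hypodermis and intestine lists had a mean below 0 in the tissue of their list. The lists were picked by name, and expression was not measured in these tables. They include *mua-6* and *dod-3*, which the paper shows as more accessible in hypodermis and intestine by GFP::Dam reads. Those reads are the reference of the ratio, so low ratios of these genes are no separate evidence. Of the 12 hypodermis genes 11 had a mean below 0 in hypodermis BAF-1 and 12 with BAF-1(G12T), and of the 12 intestine genes 12 and 11 did in intestine. The exceptions were *col-13* (0.68) in hypodermis BAF-1 and *mtl-2* (0.86) in intestine BAF-1(G12T). Of 12 hypodermis genes, 7 were below 0 by the test in hypodermis BAF-1 and 10 in hypodermis BAF-1(G12T), against 2 and 1 in intestine, with medians of -2.16, -2.56, -0.51 and 0.18. *dpy-7*, a cuticle collagen gene, had means of -2.49 and -2.61 in hypodermis and 0.48 and 1.66 in intestine. The recombinase transgene carried the *dpy-7* promoter in the hypodermis strains, and that of *nhx-2*, on the intestine list, in the intestine strains. The effect of these promoter copies on the ratios was not tested. Of 12 intestine genes, 8 were below 0 with each protein in intestine and 2 and 1 in hypodermis, with medians of -0.49, -0.21, -2.40 and -2.65. *elt-2*, the intestinal GATA factor gene, had -1.37 and -0.85 in hypodermis and -2.53 and -2.57 in intestine. None of the myosin and paramyosin genes was below 0 by the test in any group, although *myo-1*, *myo-2* and *myo-3* had means below 0 in intestine BAF-1 (-0.94 to -0.42).

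**Figure D5:**
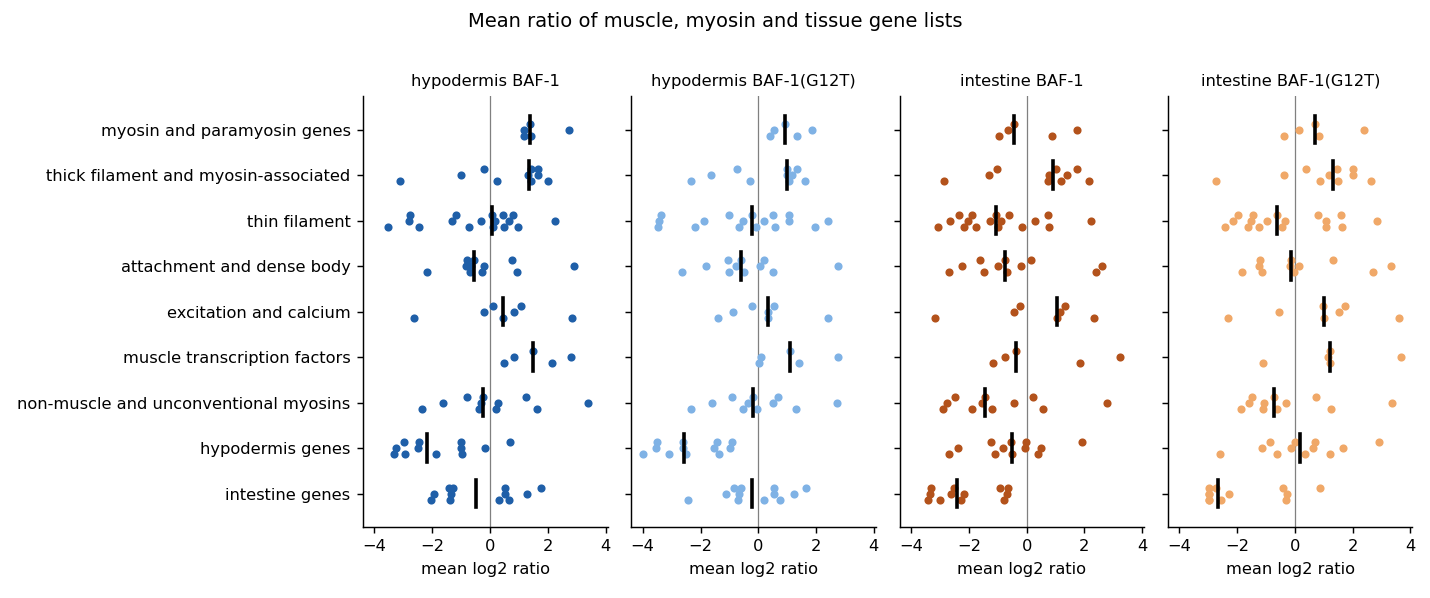
Mean log2 ratio over 3 replicates (horizontal axis) of each gene in 9 sets, 1 panel per group. Points are genes and black bars list medians. The hypodermis genes lie lowest in hypodermis (medians -2.16 and -2.56) and the intestine genes in intestine (-2.40 and -2.65), whereas the myosin and paramyosin genes lie from -0.94 to 2.73.

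The nearest protein-coding genes varied with and apart from the members. Next to *myo-1*, *ztf-15* (246 bp away, with overlapping windows) had means of 0.81, 0.03, -1.42 and -1.53, and *twk-1* on the other side had -1.92, -0.46, -0.97 and -1.96. Next to *myo-3*, *vab-8* had -0.83, -1.12, -1.37 and -0.87, although its window overlaps that of *myo-3*, and *ttr-22* had -1.96, -1.38, -1.60 and -1.41. Next to *unc-54*, *aex-5* (74 bp away, overlapping windows) had 0.69, 0.22, 0.66 and -1.05. *F11C3.1* on its other side had 1.33, -0.48, 0.83 and 0.40. Beside *myo-2*, *F45E6.1* (overlapping windows) had 0.23, 0.39, -1.46 and -1.95, and *cdf-2* had -0.23, 0.94, -2.35 and -1.28. Both neighbours of *unc-15* were high in intestine, with 1.43 and 1.83 for *sue-1* and 1.61 and 1.21 for *C15A11.2*. In hypodermis these had -1.17 and -1.51, and 1.13 and 0.01.

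The genes with profiles most like each member were found by the root mean square difference over the 12 columns among 17907 protein-coding genes, leaving out those within 50 kb of a member. For *unc-54* they were *R10F2.6* (0.39) and *prp-6* (0.52), against a median of 2.45 over all genes. For *myo-3* they were *Y87G2A.19* (0.38) and *Y25C1A.13* (0.43, median 2.04), for *myo-1* *C49C8.1* (0.29) and *zwl-1* (0.30, median 2.01), and for *myo-2* *CD4.8* (0.36) and *mrp-1* (0.36, median 2.11). For *unc-15* they were *dig-1* (0.42) and *appg-1* (0.44, median 2.39). All genes are read from the same libraries, and nothing is drawn from the likeness.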

How the data were processed

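The members and lists were chosen with earlier results of these data known. The authors kept reads with the DamID adapter that mapped to GATC sites of ce11 (aligner not given in the sources used here) and counted them over extended genes (500 bp at each end) and 2 kb bins. Per replicate, the deposited log2 ratio was made by the authors from relative reads of fusion over GFP::Dam after a pseudocount of 1, minus the mean over all features. The deposited average and adjusted p-value columns hold the comparisons of the authors (DESeq2, version not given in the sources used here). Their values were not used, except that a feature was tested where the p-value was present in every table entering a fit. The ratios carry no depth.

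Each column was centred on its median over tested features (genes: -0.54 to 0.55 subtracted). limma 3.58.1 (R 4.3.3) with robust empirical Bayes moderation tested means against 0 and 3 columns against 3, two-sided, with Benjamini-Hochberg adjustment over all features and 0.05 as threshold. Figures and summaries were made in Python 3.11.15. The fits were also run on simulated columns, drawn independently and so without the pairing of replicate numbers given below. No result here rests on that run. Samples were grouped by their labels. Gene positions are from the WBcel235 annotation, which has the chromosome lengths of ce11.

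Replicate numbers were checked for pairing. Between the proteins of 1 tissue, deviations of columns with the same number correlated across genes by 0.28 to 0.45 in hypodermis and 0.24 to 0.43 in intestine, so the numbers pair those samples. Between tissues they did not (-0.10 to 0.08). Alternatives were leaving out each replicate, no filter, the centring as deposited, moderation without the robust option, the replicate block and, for members, the mean of 2 kb bins. The text names all 5 members, the called and the highest and lowest genes of the muscle and myosin lists (at most 5 called per list and group required), the nearest neighbours and the 2 most alike genes. *dpy-7*, *elt-2*, *col-13*, *mtl-2* and the bins named singly were chosen after their values were seen.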

Additional observations from a re-analysis of the deposited data

Results flagged for a closer look

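Among the members, *myo-2* was the gene with all 3 replicates above 0 in hypodermis BAF-1 (1.97, 1.82 and 0.46) and all 3 below 0 in intestine BAF-1 (-0.92, -0.90 and -1.01). The share of all genes with this pattern was not counted. The wider pattern, all hypodermis BAF-1 values above all intestine BAF-1 values, was held by 16.2% of tested genes. The tissue difference of *myo-2* was tested and was -1.996 (intestine minus hypodermis, limma adjusted p = 0.109), so it did not pass. With BAF-1(G12T) it was -1.16 (adjusted p = 0.342).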

How the results depend on the processing

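Most results kept their direction and their side of the threshold. Of 280 differences of the members under the alternatives, 261 did, 18 turned in sign without passing the test and 1 newly passed (*myo-2* between tissues, given above). Of 140 levels, 117 were counted as the same, 11 lost and 6 gained a call, 2 turned and 4 moved by more than 1 SD. Levels taken as means of 2 kb bins had no adjusted p. For genes without a call they were counted by the size of the move alone. Among these, the signs of *myo-1* and *myo-2* in intestine BAF-1(G12T) turned as well, and the 2 do not include them. With 1 replicate left out, bound genes ran from 3845 to 6712 (hypodermis BAF-1), 5266 to 8508 (hypodermis BAF-1(G12T)), 0 to 12510 (intestine BAF-1) and 4131 to 6896 (intestine BAF-1(G12T)), and bound bins from 4189 to 8232, 6208 to 10272, 4239 to 12852 and 4388 to 7772. Genes that differed between tissues ran from 0 to 3572 with BAF-1 and from 0 to 2935 with BAF-1(G12T). Without the filter the bound genes were 423 in hypodermis BAF-1(G12T) and 6214 in intestine BAF-1, 1 gene differed between proteins in intestine, and 350 differed between tissues with BAF-1(G12T), in place of 2344. The cause was not tested.

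With the replicate number as a block, no call of a member changed and 0 genes differed between proteins in either tissue. Between tissues, where the numbers do not pair the samples, the block gave 2707 genes with BAF-1 and 1216 with BAF-1(G12T).

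Signs turned for small values. With 1 replicate left out the level in intestine BAF-1(G12T) ran from -0.16 to 0.35 for *myo-2*. The protein difference in intestine ran from -0.21 to 0.44 for *myo-1*, -0.011 to 0.78 for *unc-15* and -0.71 to 0.39 for *unc-54*, and in hypodermis from -0.45 to 0.30 for *myo-2* and -0.77 to 0.20 for *myo-3*. The tissue difference of *myo-3* with BAF-1(G12T) ran from -0.55 to 0.13, and the change of the tissue difference of *unc-54* between proteins from -0.090 to 1.14. Without the filter the intestine BAF-1(G12T) level of *myo-1* was 0.17, the tissue difference of *myo-3* with BAF-1(G12T) 0.072, the protein difference of *myo-2* in hypodermis -0.17 and that of *unc-54* in intestine 0.65. With the centring as deposited these protein differences were -0.27 and 0.27.

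As the mean of 2 kb bins, the level of *myo-1* was 0.29 in hypodermis BAF-1 and 0.25 in intestine BAF-1(G12T), that of *myo-2* -0.73 and of *unc-15* 2.05 in intestine BAF-1. With flanks of 4 kb the body exceeded the flanks in 11 of 12 columns for *unc-54*, *myo-3*, *myo-1* and *unc-15* and in 8 of 9 for *myo-2*. With flanks of 20 kb it did in 12 of 12 for all, and with all bins in 12, or 11 for *unc-15*. These flank alternatives and the overlap under other centrings were chosen after seeing the data.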
